A study of Homo sapiens with 4 samples.

Results

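The SR and hnRNP splicing factors were taken as the genes of the count table whose symbol was SRSF or HNRNP followed by the letters and digits of a family member, with pseudogene symbols (ending in P and digits) left out. The rule gave 38 genes, 12 SRSF and 26 HNRNP, out of 61806 genes in the table, and it left out 134 pseudogenes. The cells were U251-MG, a cultured human glioblastoma line labelled as glioma cells of wild-type genotype, infected with lentivirus made from the pCDH-CMV-MCS-EF1-puro vector. The COL8A1 group (2 libraries) carried the cDNA of COL8A1, a short-chain collagen, and the negative control group (NC, 2 libraries) carried the control vector, so every library came from virus-infected cells. The labels do not state how the infected cells were selected, whether they came from 1 infection, or whether the libraries of a group were separate cultures. The p-values rest on the spread between the libraries of a group, and that spread may be technical.

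SR proteins carry RNA recognition motifs and a tail rich in arginine and serine. They bind exonic enhancers, help recruit the U1 and U2 machinery to nearby splice sites and mostly favour exon inclusion. The hnRNP proteins coat nascent transcripts, and several of them bind splicing silencers and favour exon skipping, so that the ratio of an SR protein such as SRSF1 to HNRNPA1 can shift the choice between competing splice sites. Many members of both families limit their own transcripts by splicing in exons that lead to nonsense-mediated decay. Reads counted per gene, as here, hold no information on which exons were used.

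The total counts of the NC libraries were 30895414 (replicate 1) and 33576228 (replicate 2), and those of the COL8A1 libraries were 31605164 and 27923796. COL8A1 itself had 77 and 82 counts in NC and 4290 and 2259 in the COL8A1 group, higher in both libraries in accordance with the labels (edgeR adjusted p = 0.0681). Of 10 astroglial and glioma marker genes, 9 were higher in the COL8A1 group, against 50.2% of all genes tested. Of these 10 genes, 5 did not overlap between groups, all higher in COL8A1, against 18.9% of all genes. edgeR called 0 of the 10, with 4 at an unadjusted p under 0.05, against 6.07% of all genes. DESeq2 called 2, against 1.06% of all genes. Those 2 were the glutamate transporter gene SLC1A3, with 27.2 CPM (library-size-scaled counts, with TMM factors) in both NC libraries and 52.7 and 59.2 CPM in COL8A1 (DESeq2 adjusted p = 2.52e-10, edgeR adjusted p = 0.165), and FABP7, with 32.1 and 36.8 CPM in NC and 49.9 and 48.4 CPM in COL8A1 (DESeq2 adjusted p = 0.0461, edgeR adjusted p = 0.58). GFAP, the astrocyte filament gene, had 21 and 19 counts in NC and 65 and 51 in COL8A1. The summed level of the list, most of it from VIM, overlapped between groups, at 4302 and 4789 CPM in NC and 5189 and 4543 CPM in COL8A1.

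The summed leukocyte markers did not overlap, at 5.38 and 6.05 CPM in NC and 3.96 and 4.68 CPM in COL8A1. Most of that sum was CD68 (141 and 187 counts in NC, 107 and 115 in COL8A1), a gene that other cells also express, while AIF1 and CD3E were at 0 in all 4 libraries. Summed with the overlapping gene ENSG00000264772, CD68 had 806 and 596 counts in NC and 954 and 562 in COL8A1. Its log2 fold change was then 0.19, against -0.435 alone. The sums for neurons (60.2 to 74.1 CPM), oligodendrocytes (0.06 to 0.54 CPM, with MOG and OLIG2 at 0), endothelium (62.1 to 79.7 CPM), fibroblasts and pericytes (7.97 to 9.89 CPM) and epithelium (379.6 to 495.5 CPM) overlapped. edgeR and DESeq2 called 0 genes of these 6 lists, and 0 had an unadjusted edgeR p under 0.05. The part of these markers in the values that follow was not tested.

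Sequence matters to these counts, since HNRNPA1 has many near-identical copies in the genome and a short read can match more than 1 of them. The table listed 76 genes named as copies of HNRNPA1, of which 37 had a count. Of these copies, 2 belong to the family by symbol, HNRNPA1L2 and HNRNPA1L3. Shared sequence was measured on GENCODE 29 transcripts on GRCh38, the assembly also called hg38. Over the longest coding transcripts, 27.2% of all 75-base windows of HNRNPA1 occurred unchanged in transcripts of 22 other genes. The share was 44.2% for HNRNPA1L2 and 41.3% for HNRNPA1L3. HNRNPA2B1, HNRNPF, HNRNPH1, SRSF2, SRSF3 and SRSF7 were among the members with no shared window. Whether reads that match several genes were counted is not given in the sources used here. The values of HNRNPA1, its copies and other members with shared windows are therefore uncertain.

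Of the 38 genes, 34 passed the low-count filter and were tested. The other 4 were HNRNPCL1, HNRNPCL2, HNRNPCL3 and HNRNPCL4, which resemble HNRNPC and had 0 counts in all 4 libraries. All 38 members took 1.13% and 1.11% of all counts in NC, against 1.08% and 1.10% in COL8A1 (replicates in order). In CPM per kb of annotated exon, HNRNPA1 stood highest in NC, at 314.1 and 271.8. HNRNPK, which binds C-rich tracts, followed with 132.2 and 137.5, then HNRNPF, a binder of G-rich runs, with 126.1 and 124.3, and HNRNPA2B1 with 120.2 and 121.2. By this measure HNRNPA1 lay above all other members in every NC library, while the next 3 lay within a narrow band. The length used was all annotated exon bases of a gene, and the order below HNRNPA1 depends on it. HNRNPA2B1 had 9267 such bases but 3664 in its longest coding transcript, against 5114 and 2942 for HNRNPK. The shorter length would place HNRNPA2B1 above HNRNPK. The SR gene with the highest level per kb of annotated exon in NC was SRSF1, at 71.3 and 65.3. It overlapped there with HNRNPUL1, at 69.9 and 67.6. This rank also depends on the length. SRSF1 had 3340 exon bases and 3117 in its longest coding transcript, while SRSF9 had 3744 and 1201. The shorter length would place SRSF9 above SRSF1. The lowest levels per kb in NC belonged to SRSF12 (mean 0.028), HNRNPA1L2 (mean 1.31) and HNRNPLL (mean 9.28), an HNRNPL relative known for repressing exons of CD45 in T cells. HNRNPLL had 54.2 and 55.7 CPM in NC and 61.6 and 60.5 CPM in COL8A1.

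**Figure D1:**
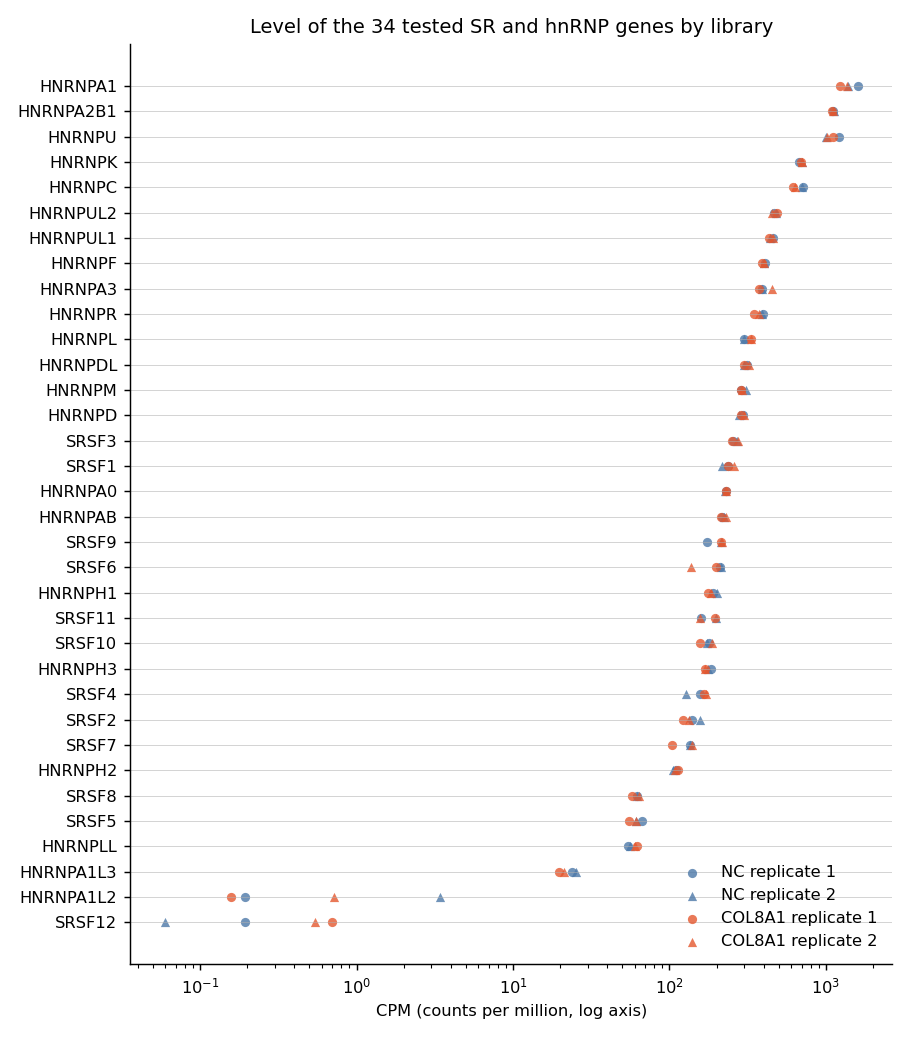
Level of each of the 34 tested genes in CPM on a log axis, 1 point per library (blue NC, orange COL8A1; circles replicate 1, triangles replicate 2), ordered by mean level. Most genes lie between 50 and 1600 CPM with their 4 points close together, while SRSF12 lies under 1 CPM in every library and HNRNPA1L2 does so in all but NC replicate 2 (3.41 CPM).

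No member of either family passed the test between the groups. edgeR's quasi-likelihood test called 0 of 34 at an adjusted p under 0.05, against 0.0117% of the 17030 genes tested (2 genes), and the smallest adjusted p among the members was 0.725. An unadjusted edgeR p under 0.05 was found for 2 members, or 5.88%, against 6.07% of all genes. DESeq2 also called 0 of 34, against 1.06% of all genes. By that tool 2 members, or 5.88%, had an unadjusted p under 0.05, against 5.76% of all genes, and limma-voom called 0 members. The members' share at an unadjusted p under 0.05 was thus close to the background. In bulk RNA, a change in the level per cell and a change in the share of cells at that level cannot be told apart.

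The direction and size of the differences were read beside those of other well-counted genes. Of the 34 members, 13 had a higher mean and 21 a lower mean in COL8A1 (38.2% higher, against 50.2% of all genes and 46.9% of the 4631 genes with a mean of at least 50 CPM). The median log2 fold change, COL8A1 minus NC, was -0.02 over the members, against 0.001 over all genes. At 50 CPM or more it was -0.016 for members and -0.009 for all genes. Over the 12 SRSF genes it was -0.03, and over the 22 tested HNRNP genes -0.015. Without COL8A1 replicate 1 the median changed sign, to 0.01 over the members and 0.05 over the SRSF genes. Among the 31 members with at least 50 CPM the median absolute log2 fold change was 0.05, against 0.08 for all genes at that level, and the median absolute log2 difference between the 2 libraries of a group was 0.06 in NC and 0.10 in COL8A1. Of these 31, 1 gene (SRSF6) differed by more than 0.25 on the log2 scale, or 3.23%, against 12.2% of all genes at that level. The difference between the groups was thus no larger, at the median member, than the difference between replicates. The first compares means of 2 libraries and the second single libraries, which vary more, so the 2 sizes are not like for like.

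**Figure D2:**
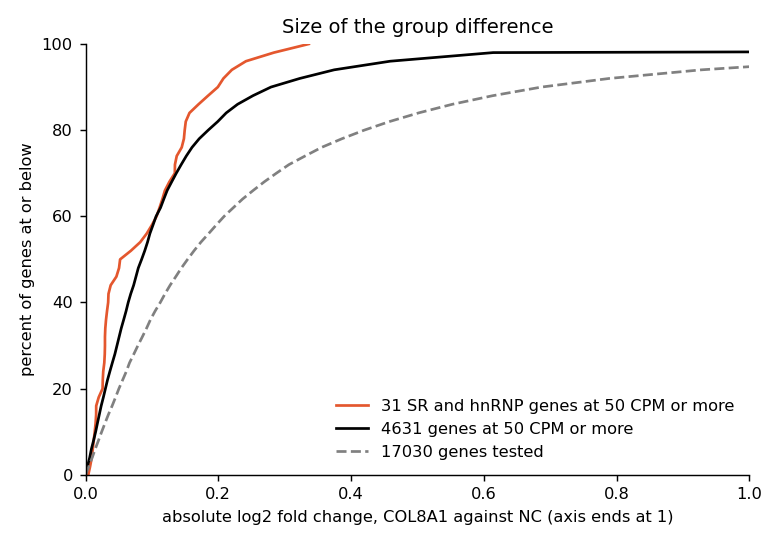
Percent of genes whose absolute log2 fold change lies at or below the value on the horizontal axis, for the 31 members with at least 50 CPM (orange), the 4631 genes at that level (black) and all 17030 genes tested (grey, dashed). The members' curve ends at the value of SRSF6, 0.34, while the curves for the other genes run past the end of the axis.

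The precision allowed modest changes to be bounded. The 95% interval of the fold change lay within 1.5-fold in either direction for 31 of the 34 tested members, and within 2-fold for 32. Among members with at least 50 CPM, the widest bounds were a fold of 0.563 (SRSF6) and of 1.48 (SRSF4). HNRNPA2B1, which packages nascent RNA and sorts RNA into transport granules, had 1114 and 1123 CPM in NC and 1102 and 1114 CPM in COL8A1. Its interval ran from a fold of 0.912 to 1.08. HNRNPA0, a binder of AU-rich elements, had a slightly wider interval, from 0.906 to 1.12, at 229.6 and 227.2 CPM in NC and 230.3 and 229.3 CPM in COL8A1 (log2 fold change 0.01, SE 0.06).

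**Figure D3:**
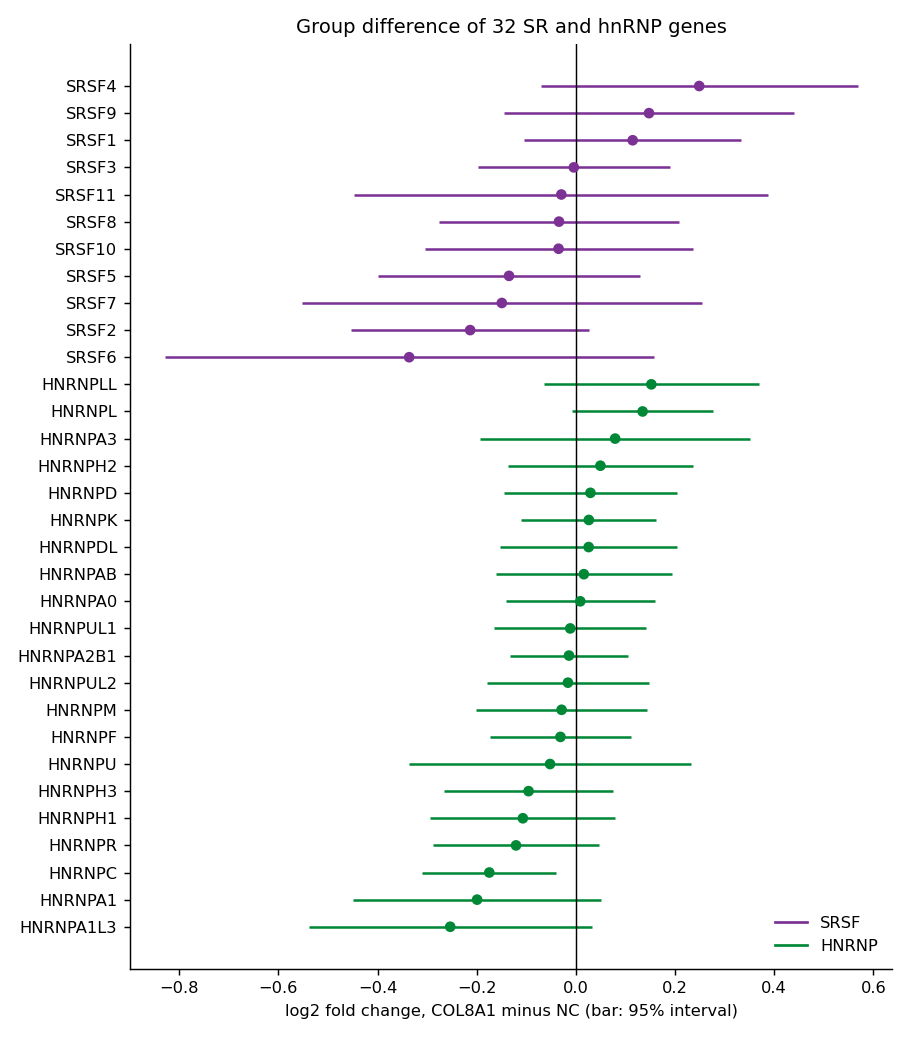
Log2 fold change, COL8A1 minus NC, of 32 members with its 95% interval from the edgeR fit (purple SRSF, green HNRNP); SRSF12 and HNRNPA1L2 are left out because their intervals span more than the axis. HNRNPC is the only gene drawn whose interval does not cross 0, and after adjustment over all genes its p was 0.725.

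SRSF1, the founding SR protein and an oncogenic splicing factor in several tumours, had 238.2 and 218.0 CPM in NC and 235.3 and 258.5 CPM in COL8A1. The groups overlapped (log2 fold change 0.11, SE 0.08, unadjusted p = 0.232 by edgeR; from 0.04 to 0.18 with a library left out). SRSF2, which binds enhancers and takes part in transcriptional pausing release, had 139.2 and 155.9 CPM in NC and 121.9 and 132.5 CPM in COL8A1, so both COL8A1 libraries lay below both NC libraries. Its log2 fold change was -0.21 (SE 0.09, unadjusted p = 0.071, edgeR adjusted p = 0.826), or -0.13 without NC replicate 2. SRSF3, the smallest SR protein and an adaptor for mRNA export, had 256.3 and 271.1 CPM in NC and 251.7 and 274.1 CPM in COL8A1, with groups that overlapped fully. SRSF7, a close relative of SRSF3, had 135.0 and 134.9 CPM in NC and 103.9 and 139.5 CPM in COL8A1, where replicate 1 alone was low. Without that library its log2 fold change was 0.05, against -0.15 with it.

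Among SR proteins with an additional, atypical RNA recognition motif, SRSF4 had 157.8 and 126.8 CPM in NC and 166.2 and 171.9 CPM in COL8A1. The groups did not overlap, and the log2 fold change was 0.25 (SE 0.12, unadjusted p = 0.10 by edgeR), or 0.10 without NC replicate 2. SRSF6 had 210.2 and 214.7 CPM in NC and 199.5 and 137.0 CPM in COL8A1. Its log2 fold change of -0.34 (SE 0.19, unadjusted p = 0.137 by edgeR) rested on COL8A1 replicate 2, which lay 1.46-fold under replicate 1 of the same group, and was -0.09 without it. SRSF5 had 66.8 and 61.2 CPM in NC and 55.5 and 61.1 CPM in COL8A1, so the groups were parted only by the margin between the replicates numbered 2. SRSF9 had 174.6 and 213.1 CPM in NC and 214.2 and 215.2 CPM in COL8A1, and its NC libraries stood further apart than the group means. Its log2 fold change was 0.15, and 0.01 without NC replicate 1.

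SRSF8, a copy of SRSF2 without introns, SRSF10, which turns into a repressor when dephosphorylated, and SRSF11 had overlapping groups. Their absolute log2 fold changes were at most 0.04. SRSF12, a less common SR protein that antagonises other SR proteins in assays, was at the floor of detection, with 6 and 2 counts in NC and 22 and 15 in COL8A1. Both COL8A1 libraries lay above both NC libraries, and the log2 fold change of 2.26 (SE 0.76) had an unadjusted p of 0.0345 and an edgeR adjusted p of 0.793. Its 95% interval ran from a fold of 1.19 to 19.2, and the gene drops out under a filter of 1 CPM in at least 2 libraries.

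HNRNPC (ENSG00000092199, chr14:21209136-21269494, minus strand), which binds uridine tracts and keeps Alu-derived sequence from being spliced in as exons, had the smallest p of the members. It had 21846 and 23820 counts in NC and 19616 and 17775 in COL8A1, or 711.8 and 706.1 CPM against 616.7 and 639.5 CPM. Both COL8A1 libraries lay below both NC libraries, and the log2 fold change was -0.17 (SE 0.05, unadjusted p = 0.0214, edgeR adjusted p = 0.725). With each library left out in turn it ran from -0.20 to -0.15, and its unadjusted p was above 0.05 without either NC library. Of its 75-base windows, 6.69% occurred in transcripts of 2 other genes. HNRNPL (ENSG00000104824, chr19:38836388-38852347, minus strand), which binds CA repeats, lay in the other direction, with 301.6 and 301.1 CPM in NC and 331.4 and 330.2 CPM in COL8A1. These groups did not overlap either (log2 fold change 0.13, SE 0.05, unadjusted p = 0.0592, edgeR adjusted p = 0.816). HNRNPL shared 27.8% of its 75-base windows with transcripts of 3 other genes, so its values are uncertain as those of HNRNPA1 are. The largest share, 20.3%, was with ENSG00000268083, which overlaps HNRNPL on the same strand and had 0 counts in all 4 libraries.

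The bases upstream of the RefSeq start sites of HNRNPC (chr14:21269495-21269692) and HNRNPL (chr19:38852348-38852597), both on the minus strand of GRCh38.p14, are shown because these were the well-counted members with the smallest p in each direction. For HNRNPC the window leaves out bases that GENCODE 29 places in an exon. Capitals mark matches to GGGCGG, the GC box, and to CCAAT, the CCAAT box, on either strand.
HNRNPC: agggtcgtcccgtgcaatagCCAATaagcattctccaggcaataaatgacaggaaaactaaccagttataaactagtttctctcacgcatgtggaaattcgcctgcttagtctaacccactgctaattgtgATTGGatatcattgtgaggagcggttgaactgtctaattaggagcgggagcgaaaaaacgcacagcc
HNRNPL: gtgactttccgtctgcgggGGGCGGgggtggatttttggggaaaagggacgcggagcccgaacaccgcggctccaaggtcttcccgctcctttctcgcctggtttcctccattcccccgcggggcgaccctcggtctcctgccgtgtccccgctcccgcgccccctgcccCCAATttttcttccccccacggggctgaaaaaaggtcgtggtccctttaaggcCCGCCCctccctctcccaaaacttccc
The shortened HNRNPC window held 2 CCAAT and 0 GGGCGG matches, while its full 250 bases held 3 and 1, and the HNRNPL window held 1 and 2. In the 250 bases before the start, GGGCGG occurred in 27 of 48 RefSeq promoters of members (56.2%), against 42.6% of 35116 promoters of all genes. These promoters belong to 31 tested members and to HNRNPCL1, HNRNPCL2 and HNRNPCL4, and the table used has no entry matched to HNRNPA1, HNRNPA1L3 or SRSF2. CCAAT occurred in 23 of 48 (47.9%), against 32.0%. In the windows printed the marked matches do not overlap each other. Some promoters belong to the same member, and these matches are a description of the letters alone.

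HNRNPA1 (ENSG00000135486, chr12:54280193-54287088, plus strand), a repressor of exon inclusion, had 49102 and 46701 counts in NC and 39152 and 38033 in COL8A1. These were 1600 and 1384 CPM in NC and 1231 and 1368 CPM in COL8A1. COL8A1 replicate 2 lay just under NC replicate 2, at 91.7% and 92.8% of the NC mean. The log2 fold change was -0.20 (SE 0.10, unadjusted p = 0.095, edgeR adjusted p = 0.835), and it ran from -0.30 to -0.09 with a library left out.

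The copies of HNRNPA1 took 3084 and 3684 counts in NC and 2884 and 2659 in COL8A1 when summed. HNRNPA1L3 (ENSG00000224578, named HNRNPA1P48 in GENCODE 29) had 23.8 and 25.2 CPM in NC and 19.8 and 21.3 CPM in COL8A1. Its groups did not overlap (log2 fold change -0.25, SE 0.11, unadjusted p = 0.0707 by edgeR). As a percent of the NC mean its libraries stood at 97.2 and 102.8 in NC and 80.9 and 86.9 in COL8A1. HNRNPA1 itself stood at 107.2, 92.8, 82.5 and 91.7 in the same order, so in NC the 2 genes ranked the libraries in opposite order. Adding all copies to HNRNPA1, a step chosen after its values were seen, gave a log2 fold change of -0.20 (unadjusted p = 0.0818, edgeR adjusted p = 0.835).

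**Figure D4:**
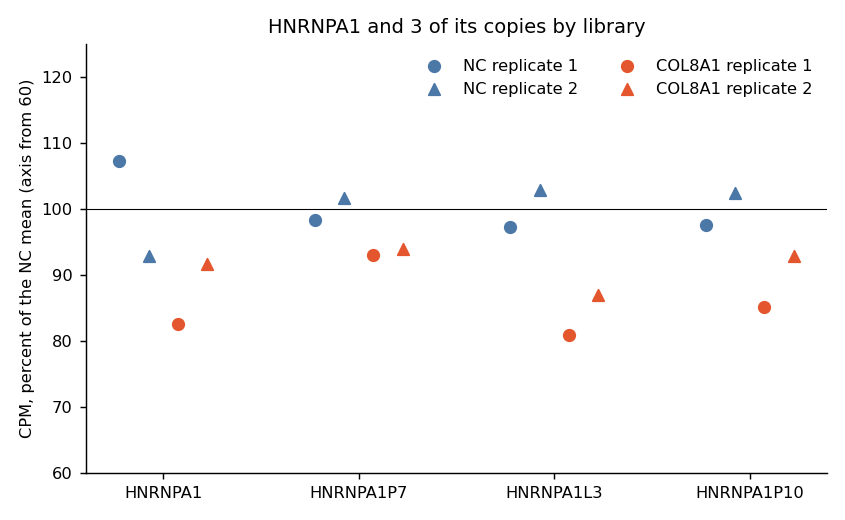
CPM as a percent of the NC mean for HNRNPA1 and the 3 copies with at least 100 counts in every library, 1 point per library (blue NC, orange COL8A1; circles replicate 1, triangles replicate 2; the axis starts at 60). All COL8A1 points lie below 100. HNRNPA1P7 shows the smallest difference between group means, with 98.4 and 101.6 in NC and 93.0 and 93.9 in COL8A1. The closest points of the 2 groups are those of HNRNPA1, at 92.8 in NC replicate 2 and 91.7 in COL8A1 replicate 2.

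HNRNPA1L2 was the member with 1 library more than 2-fold from the nearest other, a state found in 2.77% of all genes tested. It had 6 and 115 counts in NC and 5 and 20 in COL8A1, so NC replicate 2 alone was high. The log2 fold change was -2.06 (SE 1.42, unadjusted p = 0.212 by edgeR), and without NC replicate 2 it was 1.13. Its exon overlaps ENSG00000273784 on the same strand, which had 315 and 316 counts in NC and 279 and 459 in COL8A1. With the counts of the overlapping genes summed, the log2 fold change was 0.17.

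HNRNPR, a relative of SYNCRIP, had 396.1 and 389.8 CPM in NC and 348.0 and 374.8 CPM in COL8A1, with both COL8A1 libraries lower (log2 fold change -0.12, or -0.07 without COL8A1 replicate 1). HNRNPH1 and HNRNPH3, which bind G-rich runs as HNRNPF does, were lower in both COL8A1 libraries by similar small amounts. HNRNPH1 had 188.5 and 201.7 CPM in NC and 176.8 and 185.5 CPM in COL8A1 (log2 fold change -0.11). HNRNPH3 had 184.9 and 175.5 CPM in NC and 168.9 and 168.4 CPM in COL8A1 (log2 fold change -0.10). Neither passed the test, and HNRNPH2, their X-linked relative, had overlapping groups. HNRNPF was parted by a narrow margin, with 410.3 and 404.4 CPM in NC and 393.2 and 404.1 CPM in COL8A1.

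Counting the members whose libraries did not overlap between groups, 5 of 34 were higher in COL8A1 (SRSF12, HNRNPL, SRSF4, HNRNPLL and SRSF9; 14.7%), against 18.9% of all genes. A further 10 were lower (HNRNPC, HNRNPA1L3, SRSF2, HNRNPA1, HNRNPR, SRSF6, HNRNPH1, HNRNPH3, SRSF5 and HNRNPF; 29.4%), against 18.6% of all genes and 21.6% of genes with at least 50 CPM. HNRNPA1 and HNRNPA1L3 share sequence and are not separate measurements.

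The members with other roles showed small differences. HNRNPK had 676.2 and 703.0 CPM in NC and 696.7 and 707.7 CPM in COL8A1, and HNRNPU, a nuclear matrix protein that binds chromatin-associated RNA, had 1205 and 997.0 CPM in NC and 1106 and 1018 CPM in COL8A1. For both genes the groups overlapped. HNRNPM, HNRNPD (the AU-rich element binder AUF1), HNRNPDL, HNRNPAB, HNRNPA3, HNRNPUL1 and HNRNPUL2 also overlapped, with absolute log2 fold changes of at most 0.08.

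Annotated neighbours share exonic bases with several members. The readthrough gene HNRNPUL2-BSCL2 shares 45.0% of the 75-base windows of HNRNPUL2 and had 563 and 635 counts in NC and 351 and 365 in COL8A1 (log2 fold change -0.62, SE 0.14, unadjusted p = 0.00841, edgeR adjusted p = 0.607). HNRNPUL2 had a log2 fold change of -0.02 alone and -0.04 with the readthrough gene summed. Over SRSF1, ENSG00000266086 shares 57.4% of its windows and had 55 and 48 counts in NC and 167 and 88 in COL8A1 (log2 fold change 1.39, SE 0.36, edgeR adjusted p = 0.663). SRSF1 was 0.11 alone and 0.13 with that gene summed. COX20, on the strand opposite HNRNPU, had 3589 and 3847 counts in NC and 3027 and 2901 in COL8A1 (unadjusted p = 0.0492, edgeR adjusted p = 0.816), and without a known strand setting its reads cannot be told apart from those of HNRNPU where they overlap.

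As a family, the SRSF genes summed to 1779 and 1831 CPM in NC and 1759 and 1798 CPM in COL8A1, with groups that overlapped. The ratio of group means was 0.985 (exact permutation test over libraries, two-sided p = 0.667). The HNRNP genes summed to 9630.2 and 9224 CPM in NC and 8978 and 9237 CPM in COL8A1, where the higher COL8A1 library lay just above the lower NC library. Their ratio was 0.966 (exact permutation test, two-sided p = 0.667). With upper-quartile factors or library size alone the HNRNP sums did not overlap (exact permutation p = 0.333). The sum over both families was 11409 and 11055 CPM in NC and 10736 and 11035 CPM in COL8A1, without overlap and with a ratio of 0.969 (exact permutation p = 0.333). With 2 libraries a group this test cannot go below 0.333. Most of the fall in the sum over both families (mean 11232 CPM in NC, 10885.7 in COL8A1) lay in 2 genes. These were HNRNPA1 (1492.1 and 1299.5), whose values are uncertain, and HNRNPC (708.9 and 628.1).

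The ratio of SRSF1 to HNRNPA1 was computed after the values of both genes were seen. Per 100 HNRNPA1 counts there were 14.9 and 15.8 SRSF1 counts in NC and 19.1 and 18.9 in COL8A1. The groups did not overlap, and the ratio was 1.24-fold higher in COL8A1, a log2 difference of 0.31 (exact permutation test, two-sided p = 0.333, the smallest this design allows). Neither gene passed the test on its own. Since the pair was chosen after its values were seen, the p-value is no evidence of a changed ratio. The counts of both genes are also uncertain, as part of the sequence of each is shared with other genes. The share of 75-base windows was 57.4% for SRSF1 and 27.2% for HNRNPA1.

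The other genes of the splicing machinery were described from 6 lists. edgeR called 0 genes in each list, and genes at an unadjusted p under 0.05 are given for each. Over all genes tested, 50.2% were higher, 1.06% were called by DESeq2 and 6.07% had an unadjusted edgeR p under 0.05. Of 10 hnRNP proteins with other symbols, 6 were higher and 4 lower (median log2 fold change 0.075), with 2 higher and 0 lower at that p. CELF1, which binds GU-rich sites and controls splicing and decay, had 67.6 and 66.3 CPM in NC and 136.6 and 148.1 CPM in COL8A1. Both COL8A1 libraries were higher, by a log2 fold change of 1.09 (SE 0.08). Its edgeR adjusted p was 0.081 and its DESeq2 adjusted p 3.69e-18, the 1 DESeq2 call in the 6 lists. CELF2, its relative, had 16 and 15 counts in NC and 43 and 33 in COL8A1 (log2 fold change 1.39, SE 0.40, edgeR adjusted p = 0.724).

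Of 25 SR-related and TRA2 proteins, 15 were higher and 10 lower (median 0.02 on the log2 scale), with 1 in each direction at an unadjusted p under 0.05. RBM39, a U2AF2-related factor, had 188.2 and 203.8 CPM in NC and 156.6 and 170.3 CPM in COL8A1 (log2 fold change -0.26, SE 0.08). RSRC2 had 70.0 and 67.3 CPM in NC and 97.2 and 79.4 CPM in COL8A1 (0.36, SE 0.12). For both genes the groups did not overlap. The 14 kinases, phosphatase subunits and importins of SR proteins split into 7 and 7 (median -0.02), with 0 at that p in either direction. CLK4 and CLK2, kinases of SR proteins, had the smallest p there. CLK4 had 337 and 307 counts in NC and 433 and 346 in COL8A1, and CLK2 had 32.2 and 31.7 CPM in NC and 38.4 and 33.1 CPM in COL8A1 (log2 fold changes 0.38, SE 0.16, and 0.16, SE 0.12).

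Of 48 core spliceosome genes, 13 were higher and 35 lower (27.1% higher, median log2 fold change -0.05). Of all genes with at least 50 CPM, 46.9% were higher, with a median of -0.009. In the list, 0 higher genes and 1 lower gene had an unadjusted edgeR p under 0.05. That 1 was the U1 protein gene SNRPC, with 146.9 and 142.8 CPM in NC and 121.1 and 130.7 CPM in COL8A1 (edgeR adjusted p = 0.804). ISY1 was next by p, with 34.2 and 35.1 CPM in NC and 18.9 and 29.1 CPM in COL8A1. It was at -0.53 (SE 0.22) on the log2 scale, and at -0.23 when summed with its readthrough gene ISY1-RAB43, which had 354 counts in COL8A1 replicate 1 and 0 elsewhere. Of 36 tested regulators of other families, 15 were higher and 21 lower (median -0.02), with 1 higher and 0 lower at that p, namely RBM6, with 92.7 and 86.3 CPM in NC and 103.4 and 107.2 CPM in COL8A1. Its log2 fold change was 0.23 (SE 0.08), and 0.16 when summed with the overlapping gene RBM5. RBM10 had 69.6 and 72.3 CPM in NC and 63.1 and 60.8 CPM in COL8A1 (-0.20, SE 0.08). Of 17 genes of nonsense-mediated decay, which removes the poison-exon transcripts of SR genes, 6 were higher and 11 lower (median -0.02), with 0 at that p. MAGOHB and EIF4A3, parts of the exon junction complex, had the smallest p in that list. MAGOHB had 38.3 and 38.1 CPM in NC and 30.8 and 35.4 CPM in COL8A1 (-0.21, SE 0.11), and EIF4A3 had 146.3 and 147.0 CPM in NC and 139.9 and 127.0 CPM in COL8A1 (-0.14, SE 0.08).

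**Figure D5:**
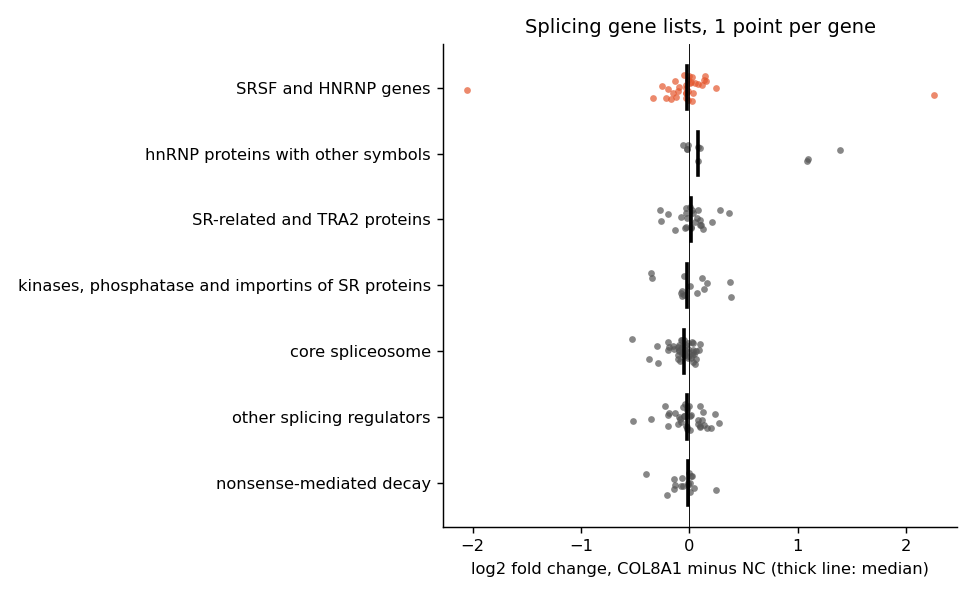
Log2 fold change, COL8A1 minus NC, of each tested gene in the SRSF and HNRNP families (orange) and in the 6 other splicing lists (grey), 1 point per gene, with the median as a thick line. All medians lie between -0.051 and 0.075, and CELF1, CELF2 and MATR3 stand to the right in the list of hnRNP proteins with other symbols, where MATR3 was high in COL8A1 replicate 1 alone (253.4 CPM, against 97.1 CPM in replicate 2).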

How the data were processed

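RNA of 4 U251-MG libraries was sequenced, and the deposited values are raw read counts per gene, without normalization by the authors. Per the submitters' processing notes, the build was hg38 and the tools were HISAT2 2.2.1, featureCounts (version listed as 0.3) and Trim Galore 0.6.9. Their settings, the strand handling and the annotation release were not given in the sources used here. Whether PCR copies were removed before counting is not stated. In the table, 1 line that names no gene (0 counts) was left out here.

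Counts were tested in R 4.3.3 with edgeR 4.0.16 (filterByExpr, TMM, quasi-likelihood fit, group as the only term, 2 residual and 2.64 prior degrees of freedom), with Benjamini-Hochberg adjustment over 17030 genes and a threshold of 0.05. SE is the absolute log2 fold change over the square root of F, and 95% intervals use the t distribution. CPM use TMM-scaled library sizes. DESeq2 1.42.0, limma-voom (limma 3.58.1), other scaling factors and filters, robust shrinkage, the replicate block, overlapping genes summed and each library left out were alternatives. The fits were tested on simulated data.

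The members and lists were chosen with earlier results of these data known. Values in every library are given for the 12 members with the smallest p, the 3 highest and 3 lowest per kb in NC, any with a library apart, 10 preset members and, in each list, the 2 genes with the smallest p. HNRNPA0, SRSF9, the marker genes named with values, the overlapping neighbours, the SRSF1 to HNRNPA1 ratio, HNRNPA1P7, HNRNPA1P10 and MATR3 were picked after their values were seen. Exon lengths and shared windows come from GENCODE 29 transcripts, and promoters from RefSeq GRCh38.p14. Some items are not reported here.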

Additional observations from a re-analysis of the deposited data

How the results depend on the processing

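With 2 libraries a group, the error of each value rests on 2 residual degrees of freedom, and changes inside the intervals given are not excluded. The members called numbered 0 under every alternative run, and of 450 member values under alternatives, 23 changed sign with a library left out (16 members) and 1 otherwise. That 1 was HNRNPA1L2, 0.17 with overlapping genes summed. Members at an unadjusted p under 0.05 numbered 1 under the filter of 1 CPM, which kept 32 members and not SRSF12, and 1 with the replicate number as a block, under which SRSF12 stayed and HNRNPC did not. The number was 2 without NC replicate 2 and 3 without any other single library, and the members differed between these fits, with HNRNPC in those without a COL8A1 library. With a library left out, 13 further members kept their sign but moved over 1.5 times, and 5 members (HNRNPC, SRSF12, HNRNPL, HNRNPA1L3 and HNRNPLL) did neither. The labels share only a number between groups, and the deviations of same-numbered libraries correlated at -0.0357 over 17030 genes, so the pairing was not used. Leaving out libraries moved the median of the members between -0.048 and 0.014, of the SRSF genes between -0.082 and 0.052 and of the HNRNP genes between -0.042 and -0.008. Single members whose sign changed ran from -3.50 to 1.13 (HNRNPA1L2), -0.38 to 0.048 (SRSF7), -0.067 to 0.21 (HNRNPA3), -0.003 to 0.051 (HNRNPK), -0.19 to 0.09 (HNRNPU), -0.082 to 0.022 (HNRNPM), -0.019 to 0.075 (HNRNPD), -0.034 to 0.08 (HNRNPDL), -0.11 to 0.035 (SRSF8), -0.17 to 0.085 (SRSF10), -0.069 to 0.031 (HNRNPUL2), -0.039 to 0.066 (HNRNPAB), -0.049 to 0.022 (HNRNPUL1), -0.2 to 0.14 (SRSF11), -0.0021 to 0.015 (HNRNPA0) and -0.07 to 0.056 (SRSF3), and the cause was not tested. With an arm of 1 library, that library is assumed to vary like the others. Over members with at least 50 CPM, an alternative added after seeing the data as were the copies summed and the SRSF1 to HNRNPA1 ratio, the median was -0.016, and the log2 ratio ran from 0.27 to 0.35 with a library left out. Over all genes, edgeR called 0 higher and 2 lower, against 103 and 77 by DESeq2, 11 and 6 with no filter, 8 and 6 with robust shrinkage, 1 and 4 with overlapping genes summed, and 0 and 1 with the block.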
